A study of Homo sapiens with 7 samples.

Results

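TSS-distal super-enhancers were taken as the listed super-enhancers (SEs) whose midpoint lay 100 kb or farther from the transcription start site (TSS) of the nearest gene, where that gene was annotated as protein-coding. There were 568 of them among the 7472 SEs of 6 lists. H3K27ac ChIP-seq lists were compared between HepG2 cells, a human liver cancer line, given DMSO (the solvent control, 3 libraries) and cells given tunicamycin (TM, 3 libraries). TM blocks N-linked glycosylation and causes endoplasmic reticulum stress (ERS). No other treatment or genetic change is named for either group, and the labels give neither the dose nor the time of TM. Nothing in the labels tells if each replicate was its own culture. The p-values therefore cover the spread over these libraries alone, and that spread may be technical.

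H3K27ac is an acetyl mark on histone H3 at active promoters and enhancers. An SE is a group of neighbouring H3K27ac peaks that are joined into 1 interval and ranked by summed signal, with only the intervals above a threshold kept. Enhancers can act on promoters far away by looping of the chromatin, also from inside the introns of other genes, and such long-range control is well known for genes of development and signalling. The gene beside each SE below is its nearest TSS as the deposited annotation gives it. No contact with that gene was measured.

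SEs this far from a TSS might be taken to lie in gene deserts, but most of these did not. The midpoint of 235 SEs (41.37%) was intergenic, that of 218 (38.38%) lay inside the linked gene itself, and that of 114 (20.07%) lay inside a transcript of another gene. The transcript of 1 further midpoint was not matched. The distance rule therefore also collected SEs deep within long genes, such as RAD51B (19 SEs, a gene of homologous recombination), NRXN3 (8 SEs, a presynaptic adhesion protein), CFTR (7 SEs, the chloride channel of epithelia) and the scaffold gene FRMPD4 (7 SEs). Among SEs inside another gene, 9 linked to VAMP3 (a vesicle SNARE) lay within CAMTA1, and 6 linked to FOXC1 (a forkhead factor) lay within GMDS. The class is called TSS-distal here for this reason.

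**Figure D1:**
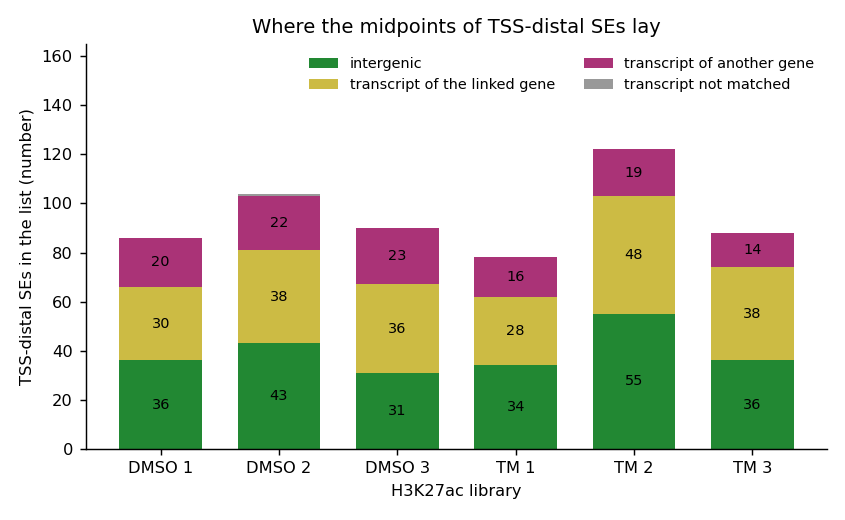
Number of TSS-distal SEs (y axis) in each H3K27ac library (x axis), split by where the midpoint lay. Intergenic midpoints numbered 31 to 55 per library, those in the linked gene 28 to 48 and those in another gene 14 to 23. Only the last kind had no overlap between DMSO (20 to 23) and TM (14 to 19), and it was not counted among the other SEs.

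Several facts of the lists bear on all values. They held 1130 to 1507 SEs with thresholds of 16747 to 26265 in the deposited signal unit, and read totals are unknown. A site that a list lacks can still be acetylated, only under the threshold. Of 15 hepatocyte markers, FOXA1 (2 libraries) and CPS1 (6 libraries) were linked to an SE. ALB, APOA1, TTR, HNF4A and the other 9 were not, and neither were the 4 endothelial and 4 macrophage markers. LUM (3 libraries) and PDGFRB (4 libraries) of 6 stellate cell markers and KRT7 (1 library) of 4 cholangiocyte markers were linked. No marker of the 5 cell types was linked by a TSS-distal SE. ALB, APOA1 and TTR are genes that HepG2 is known to express, and the labelled line could not be checked further from lists of SEs. TM 2 stood apart with the longest list and the most TSS-distal SEs, and values without it are given where it moves a result.

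The first question was whether ERS changed how many SEs lay far from a TSS. DMSO 1, 2 and 3 listed 86, 104 and 90 TSS-distal SEs, and TM 1, 2 and 3 listed 78, 122 and 88. The highest and the lowest number both came from TM libraries, so the groups overlapped. The means were 93.3 ± 9.45 (SD, n = 3) and 96.0 ± 23.1 (SD, n = 3), with p = 0.9 by an exact two-sided permutation test over libraries, for which 0.1 is the smallest possible p. Without TM 2 the mean of TM fell below that of DMSO (difference -10.33, exact permutation p = 0.4). Among the 1130 strongest SEs of each list the difference was -8.0 (exact permutation p = 0.1), so the sign changes with the length of the lists. As a share of the list they made up 7.81% ± 0.236 in DMSO and 7.34% ± 0.657 in TM (SD, n = 3, exact permutation p = 0.4). The number with a midpoint inside another gene was 20, 22 and 23 in DMSO and 16, 19 and 14 in TM, without overlap (exact permutation p = 0.1). Numbers with an intergenic midpoint or one in the linked gene overlapped (exact permutation p = 0.7 and 0.8). The same placement was not counted among the other SEs, so this difference cannot be called particular to TSS-distal SEs.

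TSS-distal SEs of the TM lists were shorter and were joined from fewer peaks. Median lengths were 59.1, 46.9 and 66.1 kb in DMSO and 39.2, 36.1 and 34.1 kb in TM. Each TM library lay below each DMSO library, and the difference of the means was -20.9 kb (exact permutation p = 0.1, adjusted p = 0.25 over 5 measures). The median SE was joined from 14, 12 and 14 peaks in DMSO and from 7.5, 7 and 6 in TM, again without overlap (exact permutation p = 0.1). All other SEs of the same lists had the same shift, from a mean of the medians of 59.4 kb in DMSO to 41.4 kb in TM, so it was not a feature of distance from the TSS. Together the TSS-distal SEs covered 6.49 ± 0.535 Mb in DMSO and 4.10 ± 1.20 Mb in TM (SD, n = 3).

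SEs of few peaks were found at these sites mainly in TM. TSS-distal SEs joined from 3 or fewer peaks numbered 1, 1 and 2 in the DMSO libraries and 9, 24 and 18 in the TM libraries. The shares of such SEs were 1.16%, 0.962% and 2.22% in DMSO and 11.5%, 19.7% and 20.5% in TM, with no overlap (exact permutation p = 0.1). Among all other SEs they were 1.12% to 2.01% in DMSO and 9.79% to 16.8% in TM, so the rest of the lists moved the same way.

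Signal density, the deposited signal per bp, is not scaled between libraries in a known way and was therefore set against the other SEs of the same library. The median density of TSS-distal SEs was 0.982, 0.999 and 1.01 times that of the other SEs in DMSO and 0.973, 1.15 and 1.07 times in TM. The groups overlapped, and the mean ratios of 0.998 and 1.06 did not pass (exact permutation p = 0.4). Without TM 2 the difference of 0.0667 became 0.0243. Without a stretch of very dense SEs on chromosome 11, which runs from ARHGAP42 past YAP1 to BIRC3 and holds 8 TSS-distal SEs, the result kept its direction and did not pass.

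The second question was how these SEs differ from intergenic SEs nearer to a TSS. The 1579 intergenic SEs within 100 kb of a protein-coding gene served as the comparison. The median summed signal of TSS-distal SEs was lower in 6 of 6 libraries, at 0.868 to 0.979 times that of the nearer SEs (mean 0.914 ± 0.0442, SD, n = 6). An exact paired sign-flip test gave p = 0.03125, the smallest possible with 6 libraries, and 0.125 when adjusted over the 4 measures compared. The libraries list many of the same sites, so this p does not measure the spread over sites. That limit holds for all paired tests below. Median lengths were lower in 4 of 6 libraries (exact p = 0.1875) and densities were higher in 3 and lower in 3 (exact p = 0.7188). The lower signal did not hold at a limit of 50 kb (exact p = 0.8438) or 200 kb (exact p = 0.25), nor when each list was trimmed to its 1130 strongest SEs (exact p = 0.125). It was also not seen for TSS-distal SEs with intergenic midpoints alone, the placement of the nearer SEs. Their mean ratio was 1.03 ± 0.111 (SD, n = 6), with 3 libraries lower and 3 higher (exact paired p = 0.6562).

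TSS-distal SEs were also split by where the midpoint lay, and each kind was set against the nearer intergenic SEs. The kinds were not tested against each other, and nearer SEs inside genes were not compared as a class. Intergenic TSS-distal SEs were denser than nearer intergenic SEs in 6 of 6 libraries, with ratios from 1.04 in DMSO 1 to 1.38 in TM 2. The mean ratio was 1.16 ± 0.121 (SD, n = 6, exact paired p = 0.03125, adjusted p = 0.125 over 12 comparisons). SEs deep within their linked gene were less dense in 6 of 6 libraries, with a mean ratio of 0.908 ± 0.0303 (SD, n = 6, exact paired p = 0.03125, adjusted p = 0.125). Their summed signal was also lower in 6 of 6 libraries, with a mean ratio of 0.874 ± 0.0705. These splits were chosen after seeing the data. At a limit of 50 kb both density differences kept their exact p of 0.03125 (log2 ratios of 0.13 and -0.11), and at 200 kb neither passed (exact p = 0.8125 and 0.2188).

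**Figure D2:**
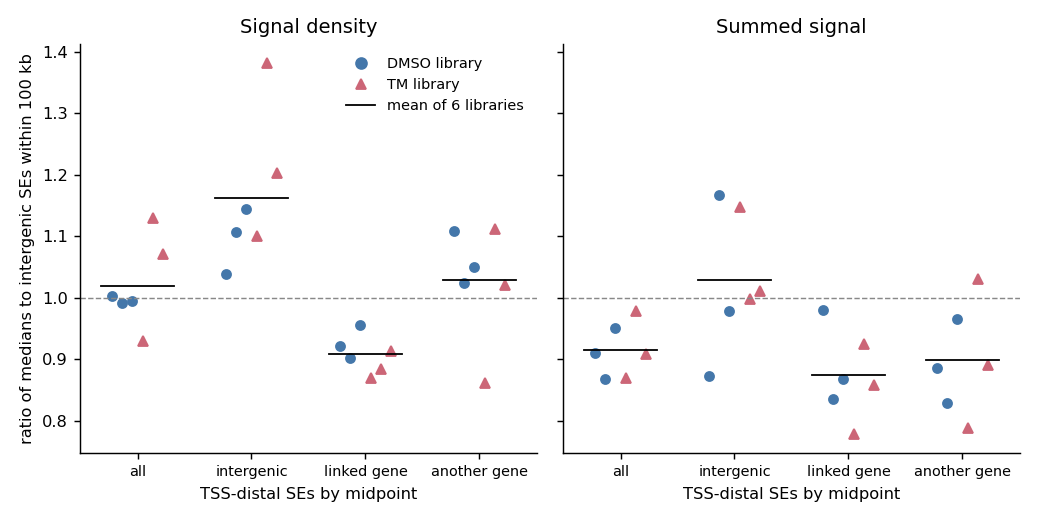
Ratio of the median of TSS-distal SEs to the median of intergenic SEs within 100 kb in the same library (y axis), for signal density (left) and summed signal (right). Columns are all TSS-distal SEs and those with an intergenic midpoint, a midpoint in the linked gene or in another gene, points are the 6 libraries and bars are their means. For density, all 6 intergenic points lie above 1 and all 6 linked-gene points lie below 1.

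The distances themselves had a median of 157.9 kb over the 568 SEs. Of these, 374 lay at 100 to 200 kb, 163 at 200 to 400 kb and 31 at 400 kb or farther. At the edge of the rule, SEs linked to PCSK1 (DMSO 1, 100.4 kb), SLC39A10 (DMSO 1, 100.5 kb) and SEMA3C (TM 2, 100.9 kb) lay just inside. Those of LIMCH1 (DMSO 3, 99.99 kb), TSPAN2 (TM 2, 99.36 kb) and TMEM144 (TM 3, 99.31 kb) lay just outside, with summed signals of 145511, 39857 and 50617 against 27692, 57903 and 28056 inside. Since distances refer to midpoints, 6 of the 568 intervals reached the linked TSS itself.

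The farthest regions were at TNS3 (a tensin of focal adhesions, chr7:46968480-46975508, 649.7 kb) and MMUT (methylmalonyl-CoA mutase, chr6:48776272-48797393, 644.2 kb), both listed in TM 2 alone. Next to these in distance was a region 614.2 to 644.7 kb upstream of IGFBP3 (a carrier of insulin-like growth factors, chr7:46549903-46645999), which all 6 libraries listed. Its summed signals were 52469, 36143 and 52424 in DMSO and 34744, 53954 and 39742 in TM, so the groups overlapped. A region 624.1 kb from TLR4 (the lipopolysaccharide receptor) was listed in DMSO 2, TM 2 and TM 3, and a region 560.9 kb from COL12A1 (a collagen chain) in the 3 DMSO libraries alone.

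These SEs were unevenly spread over the chromosomes. On chromosome 14 lay 61 of the 568, that is, 9.30% to 13.6% of the TSS-distal SEs of a library against 2.06% to 2.68% of its other SEs. The linked genes there included RAD51B and its neighbour ZFP36L1 (a decay factor for AU-rich mRNAs), NRXN3, GARIN2, EGLN3 (an oxygen-sensing prolyl hydroxylase) and SPTSSA (a subunit of serine palmitoyltransferase). A site listed in several libraries counts once for each, so few sites can make up such a share. RAD51B (19 SEs), GARIN2 (8) and ZFP36L1 (6) lay in 1 stretch, chr14:67373818-69065102, and each was linked in all 6 libraries. The share was also higher in 6 of 6 libraries on chromosomes 8, 9, 13 and 15, and none lay on chromosomes 19 and 22. How far the length and gene content of a chromosome bear on these shares was not tested.

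The deposited annotation also names the repeat, if any, at each midpoint. A SINE, the short interspersed class that includes Alu, lay at the midpoint of 13.2% ± 1.98 of TSS-distal SEs and of 22.4% ± 1.99 of the nearer intergenic SEs (SD, n = 6). The share was lower in 6 of 6 libraries (exact paired p = 0.03125, adjusted p = 0.0781 over 5 classes). Many of the same midpoint sites recur between libraries, so the 6 are not separate draws of sites. For LINEs it was 17.7% ± 6.70 against 15.9% ± 1.23, with 4 of 6 libraries higher (exact p = 0.4688). Among all other SEs a SINE lay at 17.4% ± 0.769 of midpoints, a level between both.

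The next question was how often a TSS-distal site recurred. Overlap of 1 bp or more joined SEs of the 6 lists into 1784 regions. A region was called TSS-distal where 50% or more of its SEs were, which held for 158 regions. Of these, 45 were listed in 1 library, 20 in 2, 33 in 3, 12 in 4, 7 in 5 and 41 (25.9%) in all 6, where 37.6% of all merged regions were listed in all 6. The Wilson 95% interval of the 25.9% was 19.7% to 33.3%. It treats regions as independent draws, which they are not, so it is no test against the share of all merged regions.

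Counted per SE and library, recurrence was lower than for the other SEs. The share of TSS-distal SEs that lay in a region listed in all 6 libraries was 51.2%, 53.8% and 50% in DMSO and 65.4%, 44.3% and 61.4% in TM. For the other SEs it was 64.9%, 60.4%, 62.2%, 70.1%, 53.5% and 65.1% in the same order, higher in each library. The mean difference was -8.34 percentage points (exact paired p = 0.03125), and it was -9.23 points without TM 2. The same shared regions enter the share of each library, so the 6 differences are tied and their agreement is no replication. TSS-distal SEs also ranked lower in 6 of 6 lists, nearer to the thresholds. Their median rank averaged 58.0% of the list against 49.6% for the other SEs. Whether rank bears on recurrence was not tested. TM 2 alone listed 28 TSS-distal SEs (23.0%) that no other library shared, against 1 to 6 in the other libraries. Among its other SEs that share was also the highest, at 10.5% against 1.12% to 6.41% in the other libraries, and over the 6 libraries the difference between TSS-distal and other SEs did not pass (exact paired p = 0.2812).

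**Figure D3:**
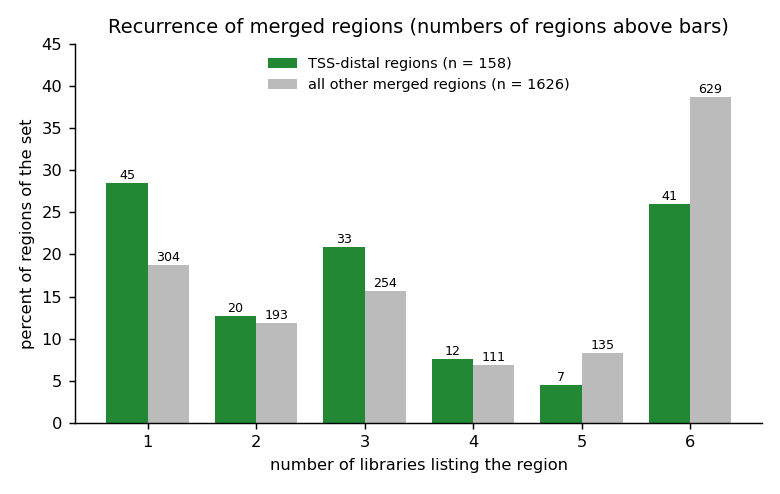
Share of merged regions (y axis, percent) by the number of libraries that list them (x axis), for 158 TSS-distal regions and 1626 other regions, with the number of regions above each bar. The TSS-distal bar is the higher for 1 library (45 regions) and the lower for 6 libraries (41 regions).

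By bases covered, TSS-distal SEs overlapped more between libraries of the same treatment than between treatments. The Jaccard index, the shared bases over all bases covered by either list, averaged 0.457 ± 0.0600 over 6 pairs within a treatment and 0.263 ± 0.0296 over 9 pairs between treatments. The difference of 0.194 had p = 0.1 by an exact permutation test of the treatment labels, the smallest possible. For the other SEs the values were 0.635 and 0.463, higher in both cases, with a difference of 0.173. The lowest value within a treatment, 0.355, was between TM 1 and TM 2. The index counts bases and not sites, and lists of unlike coverage stay below its maximum even where each site is shared. Mean coverage was 6.49 Mb in DMSO and 4.10 Mb in TM. How far this lowered the values between treatments was not tested.

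Among regions present in all 6 libraries, the highest mean summed signal was at chr3:55092067-55567600, linked to LRTM1 and WNT5A (a Wnt ligand of the non-canonical pathway). The merged interval runs into WNT5A itself, and only 11 of its 15 SEs passed the distance rule. In each TM library 1 of its SEs had its midpoint in an intron of WNT5A, and in no DMSO library did one. Values of a merged region are summed over all its SEs, those nearer to the TSS included. Of the 41 regions in all 6 libraries, 28 held TSS-distal SEs alone and 13 also held nearer ones. Its summed signals were 337673, 240947 and 334991 in DMSO and 219848, 336455 and 237607 in TM. The groups overlapped in signal but not in length, with 423, 364 and 427 kb listed in DMSO and 211, 181 and 143 kb in TM.

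A region at chr6:12468305-12606785, downstream of EDN1 (the vasoconstrictor peptide endothelin-1) and upstream of PHACTR1 (a regulator of actin and protein phosphatase 1), came next with a mean of 160815. Its signals were 152711, 107054 and 157215 in DMSO and 137089, 247721 and 163099 in TM, with overlap. The region between RANBP3L and SLC1A3 (a glutamate transporter), at chr5:36338718-36510062, had 223759, 182623 and 230800 in DMSO and 77126, 128741 and 88085 in TM. Each TM library was below each DMSO library there, and the listed length went from 149, 163 and 171 kb to 46.0, 48.9 and 48.3 kb.

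KLF5 (a zinc-finger factor of epithelia) was linked to a region 152.6 to 214.5 kb downstream of its TSS at chr13:73701118-73948090. It held 12 SEs, of which 8 passed the distance rule, and had summed signals of 180734, 129690 and 172240 in DMSO and 76442, 158554 and 102627 in TM, of which only TM 2 reached the DMSO range. The region within CUX1 (a homeobox factor), which is linked to CUX1 or to SH2B2, had 158889, 121760 and 154289 in DMSO and 78921, 92331 and 82210 in TM. The lengths there were 235 to 248 kb in DMSO and 92.1 to 94.4 kb in TM, so both measures were lower in each TM library.

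Also among the 10 strongest were regions at PGPEP1L (mean signal 92743, within IGF1R, the receptor of insulin-like growth factors), ALDH1A3 and ASB7 (82335) and NRXN3 (81821). At PGPEP1L 3 of the 6 listed SEs passed the distance rule and the rest fell short of it.

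Regions listed in all 3 libraries of a treatment and none of the other were rare, and more of them belonged to DMSO. TM-only regions numbered 7 of 158 (4.43%), where 7.57% of all merged regions were TM-only. DMSO-only regions numbered 17 (10.8%), where 5.44% of all merged regions were DMSO-only. TM-only regions were short and dense, with a median length of 28.2 kb, a median density of 1.29 per bp and a median of 5 peaks. DMSO-only regions had 50.8 kb, 0.593 per bp and 11.3 peaks. The SEs that were not TSS-distal differed the same way, so these traits were not particular to these regions. Their library medians averaged 59.4 kb, 0.657 per bp and 14.7 peaks in DMSO. In TM the averages were 41.4 kb, 0.912 per bp and 8 peaks, with densities as deposited.

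The strongest TM-only region lay 169 kb upstream of RUNX1 (a runt-domain transcription factor), at chr21:36552274-36638544, with summed signals of 36430, 58695 and 54908 and lengths of 45.3, 54.0 and 76.1 kb. A region near DHFR2 (a dihydrofolate reductase paralogue) had 33184, 58385 and 38860. In both, the weakest TM value exceeded each DMSO threshold, as deposited and after scaling by the density or by the total signal of shared regions. KLF4 (a zinc-finger factor) had a region 254.8 kb upstream, at chr9:110494610-110519191, with 23556, 44241 and 25244.

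The region at ARHGAP42 consisted of 1 peak in each TM library, with densities of 2.40, 5.10 and 3.03 per bp, and lay in the dense stretch of chromosome 11. FRMPD4 held 2 TM-only regions and a further region in TM 2, all inside the gene. The last lay near C12orf75. For these regions and KLF4's, 5 in all, the weakest TM value, as deposited, was under the highest of the DMSO thresholds. On that scale a DMSO signal of the same size could have gone unlisted in the libraries with the higher thresholds. It could not in DMSO 2, whose threshold of 16747 was below all TM values of these regions. This holds for the deposited scale alone, since the scaling between libraries is unknown. After scaling by the total signal of shared regions all 7 TM-only regions stood above each DMSO threshold, and after scaling by density 2 did. Without TM 1 the number of TM-only regions was 14.

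DMSO-only regions were led by FNDC3B (mean signal 54903), NOG (45200, the BMP antagonist noggin), DMRTB1 (44154), CACNG3 (37136, a subunit of calcium channels and AMPA receptors) and MAP1LC3C (36574, an autophagy protein). INHBA (a subunit of activins and inhibins), SLC38A4 (an amino acid transporter), EMILIN3 (a matrix glycoprotein), DCLK2 (a kinase) and CPEB3 (an RNA-binding protein of translation) followed with 35238 to 27965. At INHBA, a region 203.1 kb upstream had 35189, 32495 and 38031, with lengths of 74.7, 74.9 and 75.3 kb. DMRTB1, CACNG3 and INHBA stood above the highest TM threshold under all 3 scalings. On the deposited scale the weakest DMSO value of the other 14 fell below it, and after scaling by density all 17 stood above it, and after scaling by total signal 14 did.

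**Figure D4:**
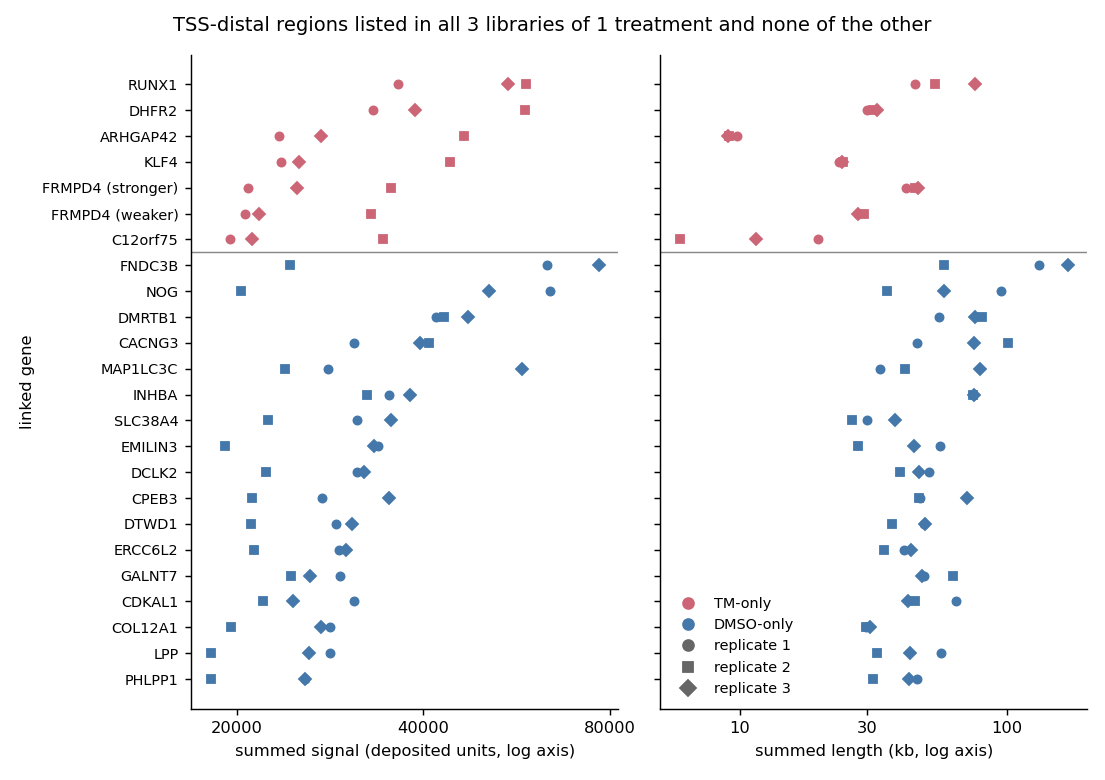
Summed signal (left) and summed listed length (right) on log axes for the 7 TM-only and 17 DMSO-only TSS-distal regions, named by linked gene, with a point for each of the 3 calling libraries. RUNX1 leads the TM-only regions with 36430 to 58695, and FNDC3B leads the DMSO-only regions with 24369 to 76897.

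For the 41 TSS-distal regions listed in all 6 libraries the density could be tested. Log2 density was centred on the median of the 670 shared regions of each library, since that median was 0.38 higher in TM on the log2 scale, and limma was fitted on all 670. In limma's test with Benjamini-Hochberg adjustment, 7 of the 41 regions passed with a higher density in TM, where 6.72% of all shared regions did. With a lower density 3 of 41 passed, where 10.6% of all did. The median change was 0.16 over the 41 and -0.03 over all 670 regions, on the log2 scale, and 13 of the 41 had an unadjusted p under 0.05 (31.7%, against 33.7% of all 670). Without the centring the counts were 13 higher and 0 lower. The counts also depend on single libraries. They were 2 higher and 0 lower without DMSO 1, 2 and 1 without DMSO 2, 1 and 0 without DMSO 3, and 2 and 0 without TM 3, but 8 and 2 without TM 1 and without TM 2.

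The higher densities came at 2 kinds of region. At the region of ASB7 and ALDH1A3 (an enzyme of retinoic acid synthesis), at WNT5A and at ZFP36L1, the density rose while the listed interval shrank. In the first of these, 5 of 7 SEs passed the distance rule, 4 linked to ASB7 and 1 to ALDH1A3. The ALDH1A3/ASB7 region had densities of 0.895, 0.872 and 0.778 per bp in DMSO and 1.69, 1.79 and 1.94 in TM. Its centred log2 change was 0.71 ± 0.17 (SE, limma adjusted p = 0.02246). The log2 change of the region's listed length was -1.51 (limma adjusted p = 0.04825) and that of its centred summed signal -0.41 (limma adjusted p = 0.05398). Lengths were fitted without centring, here and below, so length changes do not add up with the centred changes. The median length change over all 670 regions was -0.25 on the log2 scale. Before centring all 3 TM densities stood above all 3 DMSO densities, but the median of the shared regions was then also 0.38 higher in TM on the log2 scale. With quantile normalization the density change did not pass (limma adjusted p = 0.06203).

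WNT5A and LRTM1 had densities of 0.799, 0.662 and 0.784 per bp in DMSO and 1.04, 1.86 and 1.67 in TM, a log2 change of 0.60 ± 0.14 (SE, limma adjusted p = 0.02246). There the log2 summed signal changed by -0.20 (limma adjusted p = 0.04337) and the log2 length by -1.20 (limma adjusted p = 0.01607), so the sign depends on the measure. ZFP36L1 had 0.524, 0.447 and 0.481 in DMSO and 0.709, 1.28 and 0.939 in TM, a change of 0.59 ± 0.11 (SE, limma adjusted p = 0.01008). It was the only called region of the 10 that still passed without each library in turn (largest limma adjusted p = 0.04204).

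At the other 4 regions the summed signal rose too and the length change did not pass. RPL22L1 (a ribosomal protein paralogue) with SLC7A14 (a lysosomal amino acid transporter), at chr3:170396671-170478887, had densities of 0.739, 0.481 and 0.671 in DMSO and 1.01, 1.37 and 1.14 in TM. The density change was 0.52 ± 0.12 (SE, limma adjusted p = 0.01852) and that of the summed signal 0.99 ± 0.21 (limma adjusted p = 0.01312). The farther of the RAD51B regions, at chr14:68590773-68724046, changed by 0.49 in density and 0.71 in summed signal (limma adjusted p = 0.03234 and 0.03517). The nearer, at chr14:68399485-68519475 in the same gene, had a density change of -0.03 (limma adjusted p = 0.8473), a difference between the regions that was not tested. LINC02694 (0.59 in density, a locus that RefSeq now lists as a long non-coding RNA) and NSMAF (0.45, a factor associated with neutral sphingomyelinase, region inside TOX) completed the group.

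Lower densities were called at NR3C1 (the glucocorticoid receptor), CFTR with CTTNBP2, and SLCO3A1 (an organic anion transporter). The NR3C1 region, where 3 of 6 SEs passed the distance rule, had 0.705, 0.517 and 0.693 per bp in DMSO and 0.552, 0.665 and 0.456 in TM, a centred change of -0.58 ± 0.13 (SE, limma adjusted p = 0.02001). The uncentred densities overlapped in all 3 regions, so these calls rest on the centring. For CFTR the summed signals were 110648, 84390 and 135590 in DMSO and 24436, 61617 and 26592 in TM, without overlap, a log2 change of -1.65 ± 0.17 (SE, limma adjusted p = 0.001295). The length there changed by -1.66 (limma adjusted p = 0.02023), so the lower signal went with a shorter interval. The lower density of CFTR did not pass with quantile normalization (limma adjusted p = 0.05045). SLCO3A1 changed by -0.37 in density (limma adjusted p = 0.04819).

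By summed signal, 22 of the 41 regions were called, 12 higher and 10 lower in TM, where 32.4% of all shared regions were called. The highest change was at TENM2 (a teneurin adhesion receptor, 1.36 ± 0.18, SE, limma adjusted p = 0.002157). Next to CFTR, the lowest was at RANBP3L and SLC1A3 (-1.14 ± 0.07, limma adjusted p = 0.0002341). TENM2 did not pass by density, with 0.30. By both measures 4 regions were called higher and 2 lower, and WNT5A was called in opposite directions. Length was called shorter at 8 of the 41 regions and longer at 0 by limma (17 with an unadjusted p under 0.05 in either direction). Of all shared regions, 11.8% were called shorter and 0.448% longer. These calls were made without centring, so they include any shortening common to the lists.

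**Figure D5:**
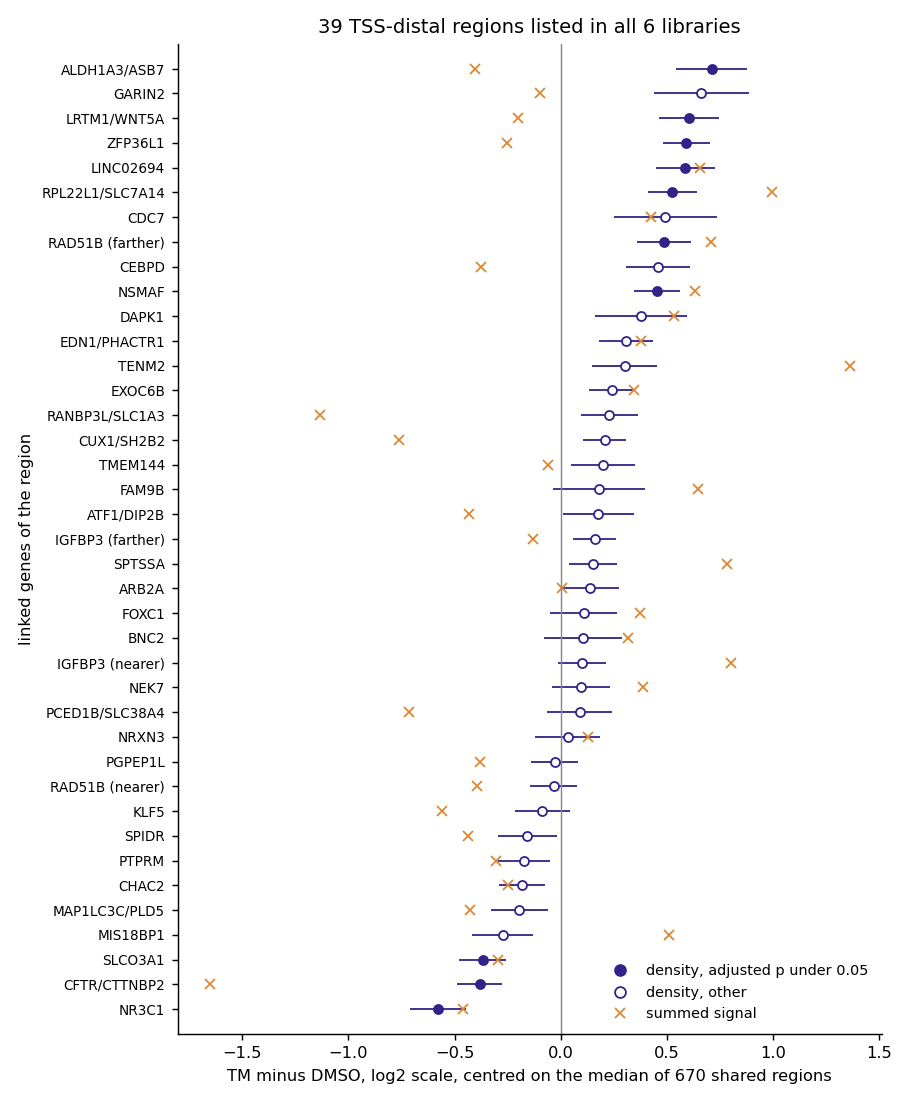
TM minus DMSO on the log2 scale (x axis) for 39 of the 41 TSS-distal regions listed in all 6 libraries (y axis, linked genes), centred on the median of 670 shared regions. Circles are densities with limma's SE, filled where the adjusted p is under 0.05, and crosses are summed signals; ALDH1A3/ASB7 is highest in density (0.71), NR3C1 lowest (-0.58), and the crosses run from -1.65 at CFTR/CTTNBP2 to 1.36 at TENM2.

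Most genes were linked to 1 TSS-distal region. Of 157 genes, 147 had 1 and 10 had 2 or more. IGFBP3 had 3 regions, all upstream, from 219.9 to 644.7 kb. The nearest of them, at chr7:46158290-46203446, had summed signals of 27737, 20096 and 25174 in DMSO and 31995, 58018 and 39265 in TM, without overlap (log2 change of the summed signal 0.80 ± 0.09, SE, limma adjusted p = 0.001295). Its density did not pass, with a log2 change of 0.10 (limma adjusted p = 0.5614) and overlapping groups. FRMPD4 had 3, all in TM lists, and RAD51B, VAMP3 and ARHGAP42 had 2 each.

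Gene lists for 8 functions, chosen with earlier results of these data known, were set against the linked genes, without a test. Of the 1483 protein-coding genes linked to any SE, 186 (12.5%) were linked to a TSS-distal SE. Among developmental transcription factors it was 7 of 27, and RUNX1, KLF4, KLF5 and FOXC1 had TSS-distal regions in 3 or more libraries. Among secreted growth factors and their antagonists it was 8 of 21, with EDN1, WNT5A, NOG and INHBA at such regions. Among adhesion and guidance receptors it was 3 of 8 (NRXN3, TENM2 and PCDH9).

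FOXC1's region inside GMDS was in all 6 lists, with summed signals of 26430, 20333 and 27197 in DMSO and 22225, 46614 and 30252 in TM, with overlap. Cell cycle genes and oncogenes had 5 of 19, among them KLF4 and KLF5, which also count as developmental factors. Matrix genes had COL12A1 alone, 1 of 14. None of the 12 SE-linked genes of the unfolded protein response and ATF4, of the 13 of hepatocyte identity or of the 19 of inflammatory signalling was linked to a TSS-distal SE. With so few genes in each list these counts are descriptions.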

How the data were processed

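H3K27ac ChIP-seq of HepG2 cells was analysed in 3 DMSO and 3 TM libraries, grouped by the labelled treatment, and an input library was not analysed here. The authors deposited 1 table of SEs per library, in which the signal of an SE is a sum over its length. Divided by the length, this deposited signal came to steps of 0.0001 per bp in 100% of SEs (within 0.001 of a step). Whether it was scaled to library size is not given in the sources used here. Read depth is unknown. SE names give the number of joined MACS peaks, and the annotation columns give the gene whose TSS is nearest to the midpoint. CASAVA 1.4 and 2 builds, hg38 and mm9, stand in the submitters' processing notes, without their use. Only 59 of the 568 TSS positions implied by the distances (10.39%) fell within 5 kb of an end of the same gene in RefSeq's GRCh38.p14 table, so the files do not use it. Coordinates are printed as deposited, and no sequence is shown. That table was used for gene names only and matched 568 of 568 SEs.

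The members and gene lists (8 lists, 616 entries) were chosen with earlier results of these data known. Lists are cut at a threshold, so an unlisted region has no value. One value per library was compared by exact permutation tests (3 against 3) or exact sign flips over 6 libraries, both two-sided, with Benjamini-Hochberg adjustment within families of measures. For shared regions limma 3.58.1 (R 4.3.3, with trend) was run on log2 density, summed signal over summed length, centred per library over 670 regions, at adjusted p under 0.05. Log2 summed signal was centred in the same way, and log2 length was not centred. In data simulated for that comparison over 670 regions, 74.0% of changes of 0.5 and 94.0% of changes of 1.0 on the log2 scale were called, and 1.06% of unchanged regions. Alternatives were the distance limit, gene type, list length, overlap, region rule, scaling, trend, replicate block and each replicate left out. Named regions are the 10 strongest in all 6 libraries, up to 10 TM-only and DMSO-only regions, up to 5 called changes in each direction, the 5 genes with most regions, the 5 farthest regions, list members in 3 or more libraries and 3 SEs on each side of the limit. Regions outside this rule (the called changes beyond 5, the summed-signal changes at TENM2 and SLC1A3, IGFBP3's nearest region, genes named for their location or chromosome) were chosen after their values were seen. A few regions chosen this way were left out of the text and of the plot of shared regions. Python 3.11.15, pandas 2.3.3, numpy 2.4.6, scipy 1.17.1 and matplotlib 3.10.9 were used.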

Additional observations from a re-analysis of the deposited data

How the results depend on the processing

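An SE below a library's threshold has no value, read depth is unknown, and sums and densities both move with the listed length. With 3 libraries against 3 no exact test is able to pass, and with 5 libraries left the smallest exact paired p is 0.0625, so those tests say nothing of stability. The causes of the changes below were not tested.

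The distance limit moved several results. At 50 kb the log2 ratios to nearer intergenic SEs were 0.0804 for length, 0.0567 for peaks, -0.00304 for density and -0.0108 for summed signal. At 200 kb they were -0.0844 for summed signal, 0.0198 for the density of SEs with intergenic midpoints and -0.0771 for that of SEs in their linked gene, and TM minus DMSO in the share of the list turned to 0.146 percentage points. TM-only and DMSO-only regions numbered 23 and 32 at 50 kb and 2 and 4 at 200 kb. With the 1130 strongest SEs per list, TM minus DMSO in number was -8.0 and the log2 signal ratio -0.0837. Midpoints in another gene alone gave a difference of -5.33 SEs. Alternatives chosen after seeing the data asked that the weakest calling library exceed each threshold of the other treatment. This left 2 TM-only and 3 DMSO-only regions on the deposited scale, and 2 TM-only after scaling by density.

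Where any TSS-distal SE made a region count, 35.3% were listed in all 6 libraries and 5 had a lower density. The 7 higher and 3 lower densities became 12 and 10 by summed signal and 13 and 0 without centring, and limma without trend called 1 lower. With quantile normalization they were 6 and 2, and ALDH1A3/ASB7 and CFTR no longer passed (limma adjusted p = 0.06203 and 0.05045). With the replicate number as a block, limma called 7 higher and 1 lower (CFTR and SLCO3A1 were lost), and no other comparison changed its call. Libraries of the same number share only that number (correlations of their deviations were -0.00802, -0.0466 and -0.0259). On summed signal the log2 changes at WNT5A, ALDH1A3/ASB7 and ZFP36L1 were -0.20, -0.41 and -0.26, and without centring the density change at SLCO3A1 was 0.0126.

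Leaving out each replicate in turn gave differences in number from -10.3 to 11.7 SEs. TM-only regions numbered 7 to 14, higher densities 1 to 8 and lower densities 0 to 2. The log2 ratios to nearer intergenic SEs ran from -0.00454 to 0.0517 for density, from -0.15 to -0.12 for summed signal, from 0.16 to 0.24 for the density of SEs with intergenic midpoints, and from -0.15 to -0.13 for that of SEs in their linked gene. The share listed in all libraries differed from that of other SEs by -11.4 to -6.36 points.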
